A study of Mus musculus with 12 samples.

Results

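Gata2, Gata3, Gata4, Gata5 and Gata6 encode zinc finger transcription factors, and DNA methylation was followed across these 5 genes, of 22367 protein coding genes in the annotation. Each gene was read on GENCODE M1 (mm9) from 5000 bp upstream of its annotated start to its end, with the promoter kept apart from the body. The promoter was taken from 2000 bp upstream to 500 bp downstream of the gene start, the body as the rest of the gene, and the 3000 bp before the promoter as the upstream part. Gata3 was chosen by its promoter level in PBS, which was high, and by its lower level after the drugs, so its values against PBS are given as a description with no test. The other 4 genes were tested against PBS as part of fits over all genes, and all 5 genes were tested for a difference between the free and the micelle form of the drugs, which the choice of genes did not use.

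The cells were proximal tubule epithelial cells of mouse kidney, heterozygous for Pkd1, taken from Pkd1 flox/-:TSLargeT mice and used at passage 3. The labelled cell type cannot be checked from methylation alone, and no RNA was measured in these libraries. Treatment lasted 24 h. Control cells received PBS, and a second group received 5-aza-2′-deoxycytidine (Aza, 50 µM), which inhibits DNA methyltransferases. The F-MTAza group received free Aza at that dose together with metformin (300 µM) and tolvaptan (10 µM), and the NP-MTAza group received these 3 drugs at equal doses packed into micelles. There were 3 libraries per group, made by reduced representation bisulfite sequencing (RRBS), which reads the CpGs near MspI cuts. No source says that the 3 came from separate cultures, so p-values measure the spread between these libraries, which may be technical. All groups share the Pkd1 genotype and the TSLargeT allele, and neither metformin nor tolvaptan was given alone.

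The 12 libraries held 25336747 to 65817118 reads over the CpGs listed, and the median CpG had 7 to 9 reads. Counting error at any 1 CpG in 1 library is therefore wide. Aza replicates 1 and 2 stood apart. Their CpG levels had Spearman correlations across CpGs of -0.0025 to 0.0019 in the 21 pairs that held either of them, against 0.633 to 0.831 in the 45 pairs of the other 10 libraries. They enter no result below except an alternative run with all 12 libraries and the values flagged for a closer look. That leaves Aza replicate 3 as the only library of its group. Its values are given beside the others with a 95% Wilson interval, which covers counting error only, and with no test. Levels are the percent of methylated reads, weighted by reads, over the CpGs that had at least 5 reads in all 10 libraries. These shared CpGs numbered 462349 in the genome and 310 in the 5 genes.

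GATA factors bind the DNA word that gives them their name, through a pair of zinc fingers shared by the whole family. Gata2 and Gata3 belong to the branch known from blood, Gata2 for stem and progenitor cells and Gata3 for T helper 2 cells. In the developing kidney Gata3 acts in the nephric duct and ureteric bud and is kept in the collecting system, while Gata2 is known from the urogenital tract. Gata4, Gata5 and Gata6 form the branch known from heart, gut and other endoderm. CpG methylation near a start site is a mark often found at genes that are not transcribed, and Aza is built into DNA where it traps the maintenance methyltransferase, so that marks are lost as cells divide.

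Stretches of the mm9 reference that carry the results are shown first, each on the strand of its gene from 5′ to 3′, with the measured shared CpGs in capitals. Annotated UTRs and exons of transcripts that are not protein coding were left out. The Gata3 promoter stretch (chr2:9811168-9811361, minus strand, 300 to 493 bp inside the outermost start, in an intron) lies in the window for which Gata3 was chosen. It holds 11 of these CpGs, whose level pooled over the PBS libraries ranged from 38.6% to 98.0% with a median of 71.7%, against medians of 56.1% in F-MTAza and 45.1% in NP-MTAza.
Gata3 promoter: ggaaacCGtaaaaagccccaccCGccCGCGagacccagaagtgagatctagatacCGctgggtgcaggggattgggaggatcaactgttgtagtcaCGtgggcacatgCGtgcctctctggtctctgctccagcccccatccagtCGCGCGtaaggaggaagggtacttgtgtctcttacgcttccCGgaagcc
The stretch before the inner Gata3 start (chr2:9801147-9801446, minus strand, 10215 to 10514 bp from the outermost start, in an intron) is shown because its CpGs carried almost no methylation in any group. It was chosen after its values were seen, and its 8 measured CpGs had levels of 0% to 2.27% in PBS.
Gata3 inner start: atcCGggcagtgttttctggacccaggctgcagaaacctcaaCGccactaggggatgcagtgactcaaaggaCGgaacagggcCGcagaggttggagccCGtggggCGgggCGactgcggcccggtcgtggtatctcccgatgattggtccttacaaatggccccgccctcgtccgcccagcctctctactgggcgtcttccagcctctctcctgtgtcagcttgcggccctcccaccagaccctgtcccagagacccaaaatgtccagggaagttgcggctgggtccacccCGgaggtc
The Gata2 stretch (chr6:88143821-88143884, plus strand) ends at the base before the gene start and holds 10 measured CpGs, with PBS levels from 21.6% to 90.0%.
Gata2 promoter: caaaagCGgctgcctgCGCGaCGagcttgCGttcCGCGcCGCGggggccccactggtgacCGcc
The Gata4 stretch (chr14:63862919-63863206, minus strand) lies in an intron 27323 to 27610 bp inside the gene and stands for the Gata4 block with the most shared CpGs. Its 8 measured CpGs had PBS levels from 26.8% to 92.5%.
Gata4 intron: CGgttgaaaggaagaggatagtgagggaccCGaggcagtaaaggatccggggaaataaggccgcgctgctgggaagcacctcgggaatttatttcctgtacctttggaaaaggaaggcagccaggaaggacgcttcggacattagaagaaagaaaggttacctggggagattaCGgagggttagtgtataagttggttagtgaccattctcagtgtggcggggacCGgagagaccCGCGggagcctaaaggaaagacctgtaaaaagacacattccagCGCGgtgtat
The Gata5 stretch (chr2:180068621-180068727, minus strand, coding sequence 677 to 783 bp inside the gene) is the only run of Gata5 CpGs dense enough to be read as a block. Its 11 measured CpGs had a median PBS level of 93.0%, against 68.4% in F-MTAza and 61.8% in NP-MTAza.
Gata5 coding exon: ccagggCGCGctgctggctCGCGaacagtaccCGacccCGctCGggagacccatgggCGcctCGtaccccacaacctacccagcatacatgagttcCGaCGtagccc

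Coverage decided how much of each gene could be read. Gata3 (ENSMUSG00000015619.9, chr2:9778705-9811661, minus strand) had 117 shared CpGs, and Gata2 (ENSMUSG00000015053.8, chr6:88143885-88157024, plus strand) had 81. Gata4 (ENSMUSG00000021944.8, chr14:63817759-63890529, minus strand) had 62, Gata6 (ENSMUSG00000005836.8, chr18:11052508-11085633, plus strand) had 34 and Gata5 (ENSMUSG00000015627.4, chr2:180059838-180069404, minus strand) had 16. All 5 bodies could be tested, but only the promoters of Gata2 and Gata3 reached the minimum of 3 shared CpGs. The Gata4 promoter had 1 shared CpG, and those of Gata5 and Gata6 had 0, since F-MTAza replicate 1 lists no CpG in either. Other annotated genes run through some windows: 9230102O04Rik, 4930412O13Rik and Gm13256 in Gata3, Gm14318 in Gata5 and 1010001N08Rik upstream of Gata6.

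Across the 5 genes, methylation went from high to intermediate. In PBS, 151 of the 310 shared CpGs (48.7%) had a level of at least 80%, with reads pooled over 3 libraries. Over the 6 F-MTAza and NP-MTAza libraries together this number was 15 (4.84%), and 290 CpGs (93.5%) were below their PBS level. Among all 462349 shared CpGs the corresponding shares were 54.9%, 2.87% and 87.5%, so the Gata genes moved much as the genome did. In Gata6 25 of 34 CpGs were at 80% or more in PBS and 7 were after the drugs, while in Gata2 these numbers were 28 and 0 of 81. In Gata3 17 of 117 CpGs (14.5%) were under 10% in PBS, against 19.7% of all shared CpGs. Gata2 had 3 such CpGs, and Gata4, Gata5 and Gata6 had 0. The promoters of Gata4, Gata5 and Gata6 had almost no shared CpGs, so an unmethylated part there would not have been seen.

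Gata3 was read in 2 parts that differed in level. GENCODE M1 gives the gene an outermost start, used by the transcripts Gata3-004 and Gata3-201, and an inner coding start, used by Gata3-001, 11434 bp further in. The promoter window for which the gene was chosen lies at the outermost start. There, over 25 shared CpGs and 274 to 1017 reads per library, the level was 77.1%, 72.5% and 77.5% in the 3 PBS libraries and 50.4% (45.6% to 55.2%) in Aza replicate 3. It was 53.2%, 41.3% and 51.5% in F-MTAza and 47.0%, 52.4% and 45.2% in NP-MTAza. The PBS mean was 75.7% ± 2.79 (SD, n = 3), and the differences from it were -27.0 points in F-MTAza, -27.5 points in NP-MTAza and -25.3 points in Aza replicate 3. All 6 combination libraries were below all 3 PBS libraries, as in 33.3% of the 8030 promoters tested. Promoters with a PBS level between 60% and 80% had a median difference of -20.9 points in F-MTAza, with quartiles of -27.0 and -15.2, and of -23.3 points in NP-MTAza, with quartiles of -28.3 and -17.8.

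**Figure D1:**
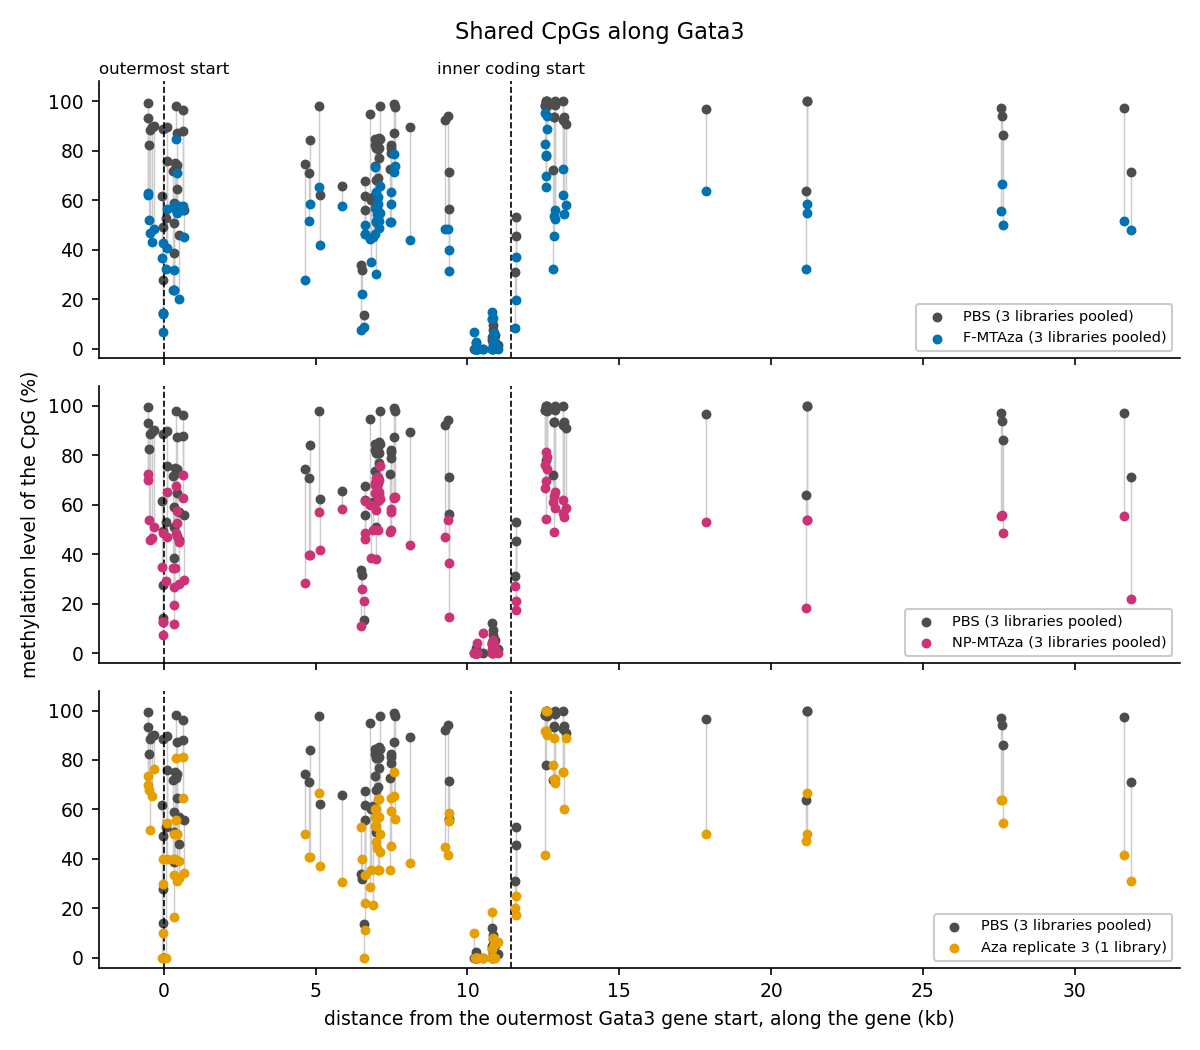
Methylation level (%) of each shared CpG along Gata3 against its distance from the outermost gene start (kb), with the 3 PBS libraries pooled in grey and F-MTAza, NP-MTAza and Aza replicate 3 in colour, a grey line joining the values of a CpG. CpGs around the outermost start lay at intermediate levels after the drugs and mostly higher in PBS, while those just before the inner coding start lay near 0% in every group.

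The window around the inner coding start was low in methylation. Over 21 shared CpGs its level was 11.4%, 7.13% and 8.68% in PBS and 6.10% (4.25% to 8.68%) in Aza replicate 3. It was 3.80%, 8.95% and 7.73% in F-MTAza and 5.86%, 4.19% and 4.58% in NP-MTAza. Ranges of PBS and F-MTAza overlapped, and the 3 NP-MTAza libraries all lay below the 3 PBS libraries, with a mean difference of -4.18 points. Over every CpG listed in each library, PBS was at 18.3%, 17.0% and 8.35% and NP-MTAza at 6.51%, 9.81% and 4.57%. The ranges of PBS and NP-MTAza then overlapped too. This window, like the other start windows, was added after the data were seen and has no test.

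Gata3 held 9 CpG blocks, runs of at least 5 shared CpGs with neighbours no more than 200 bp apart, and they showed the same division in finer detail. The block from -524 to -312 bp of the outermost start was the most methylated part of the promoter, at 92.1%, 93.8% and 88.8% in PBS. It was at 66.7% in Aza replicate 3, 59.0%, 46.9% and 52.3% in F-MTAza and 54.9%, 67.0% and 49.6% in NP-MTAza. The block across the start itself, from -55 to 96 bp, was lower in PBS, at 54.4%, 57.9% and 56.9%. Its levels were 22.5% in Aza replicate 3, 33.3%, 26.7% and 36.4% in F-MTAza and 32.1%, 30.6% and 36.5% in NP-MTAza. In an intron, the 15-CpG block from which the promoter sequence above was taken had means of 72.4% ± 2.41 in PBS, 51.0% ± 5.30 in F-MTAza and 47.3% ± 1.90 in NP-MTAza (SD, n = 3). Further in, a 24-CpG block 6507 to 7111 bp from the start, where 4930412O13Rik and 9230102O04Rik also lie, had means of 74.2% ± 6.05, 47.7% ± 6.06 and 53.7% ± 5.67 in the same order. These 4 blocks had every combination library below every PBS library.

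The 2 blocks before the inner start stayed low throughout. The block whose sequence is shown above had levels of 0%, 0.917% and 0% in PBS, 1.05% in Aza replicate 3, 0.943%, 2.63% and 0% in F-MTAza and 1.49%, 0% and 4.94% in NP-MTAza. The next, 10813 to 11016 bp from the outermost start, had 3.23%, 7.72% and 4.58% in PBS and 2.01%, 2.17% and 1.98% in NP-MTAza. Downstream of the inner start the level was high again. The 7 CpGs of the coding block at 12546 to 12624 bp were at 97.0%, 91.8% and 95.9% in PBS, at 89.4%, 77.5% and 77.0% in F-MTAza and at 87.7%, 73.1% and 57.6% in NP-MTAza. The intronic block just past it had the largest F-MTAza difference of the 23 Gata blocks, -43.6 points, from a PBS mean of 93.0% ± 1.31 to 49.4% ± 8.26 (SD, n = 3). Its NP-MTAza mean was 59.97% ± 6.71, and Aza replicate 3 stood between them and PBS at 76.2% (65.9% to 84.2%).

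Over the whole Gata3 body, with 92 shared CpGs, the level was 66.4%, 59.9% and 61.7% in PBS and 41.7% (39.4% to 44.1%) in Aza replicate 3. It was 41.4%, 42.7% and 43.3% in F-MTAza and 44.7%, 41.6% and 43.0% in NP-MTAza. The 6 combination libraries lay within a few points of each other and all below PBS, as in 82.3% of all bodies. The mean differences were -20.2 points in F-MTAza and -19.6 points in NP-MTAza. By annotation, the 11 coding CpGs of Gata3 had the highest PBS mean, 93.5% ± 3.38, and reached 67.3% ± 8.71 in F-MTAza and 62.7% ± 8.98 in NP-MTAza (SD, n = 3).

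The promoters whose levels over the 10 libraries were nearest to that of Gata3 were found by the root mean square difference in points. The nearest, 9230102O04Rik at 0.756 points, starts inside the Gata3 window and shares its CpGs, so it is not a separate observation. Next came Pip4k2c at 2.81 points, Gm10106 at 4.55, Slc44a3 at 4.62 and Aqp3, a water and glycerol channel, at 4.71. These 4 had PBS means of 74.0% to 78.6% and means of 46.7% to 53.0% in the combination groups. Likeness here means only that levels were close.

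**Figure D2:**
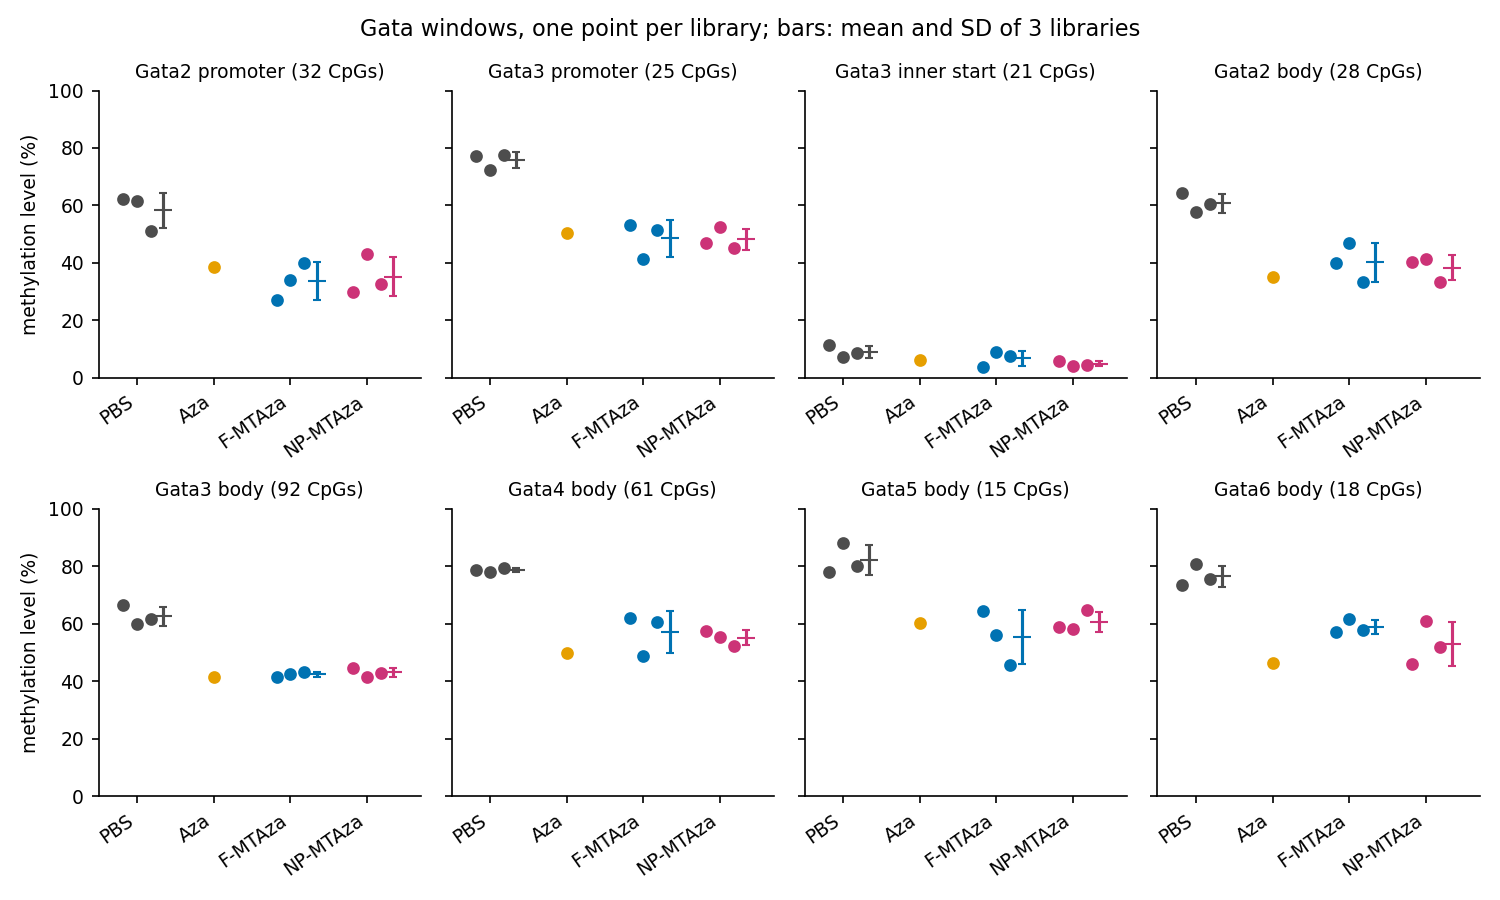
Methylation level (%) of 8 Gata windows, with 1 point per library, grouped as PBS, Aza replicate 3, F-MTAza and NP-MTAza, and bars giving the mean and SD of 3 libraries. The combination libraries lie below PBS in every window but the inner Gata3 start, where levels are low in all groups.

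Gata2, which maintains blood stem and progenitor cells, fell at its promoter in both combination groups. Over 32 shared CpGs and 256 to 1442 reads per library, the promoter level was 62.1%, 61.6% and 51.2% in PBS. It was 26.9%, 33.99% and 40.1% in F-MTAza and 29.9%, 43.0% and 32.8% in NP-MTAza, with 38.7% (33.8% to 43.8%) in Aza replicate 3. No combination library reached the lowest PBS library. The difference was -24.6 points in F-MTAza (limma adjusted p = 0.0149) and -23.1 points in NP-MTAza (limma adjusted p = 0.0169), where a call needed an adjusted p under 0.05 over all promoters and at least 10 points. Of all 8030 promoters, 22.3% were called lower in F-MTAza and 24.5% in NP-MTAza. The F-MTAza call was lost without PBS replicate 2 (-23.0 points, limma adjusted p = 0.0551). That of NP-MTAza was lost when PBS replicates 1 or 2, or else NP-MTAza replicates 1 or 3, were removed, with limma adjusted p from 0.0535 to 0.0613 and differences from -20.4 to -21.9 points.

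The Gata2 upstream part, with 21 shared CpGs, was more methylated than the promoter in PBS, at 84.0%, 86.2% and 82.2%. It stood at 56.7%, 44.7% and 34.2% in F-MTAza and 59.7%, 42.4% and 55.8% in NP-MTAza. Of these CpGs 20 form a block from -3639 to -3023 bp of the start, which fell by 39.1 points in F-MTAza (limma adjusted p = 0.000606) and by 31.3 points in NP-MTAza (limma adjusted p = 0.00143). This was the largest drop of any tested Gata window with more than 10 CpGs, and it was called whichever library was left out. A pair of CpGs in it, at -3066 and -3023 bp, were at 96.6% and 97.1% in pooled PBS reads and at 42.1% and 29.4% in F-MTAza.

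Closer to the start, a 5-CpG block from -367 to -322 bp was at 87.4%, 85.0% and 93.8% in PBS. Its combination libraries were widely spread, from 23.5% to 65.9% in F-MTAza and from 39.3% to 76.2% in NP-MTAza. It fell by 41.8 points in F-MTAza (limma adjusted p = 0.00553). The NP-MTAza difference of -31.97 points also passed (limma adjusted p = 0.0172), a call lost without PBS replicate 3 or NP-MTAza replicate 2 (limma adjusted p = 0.0645 and 0.0700). The 27-CpG block across the start, from -58 to 135 bp, was at 51.7%, 59.9% and 45.2% in PBS. It was at 20%, 31.2% and 42.0% in F-MTAza and at 26.1%, 44.1% and 29.95% in NP-MTAza, with differences of -21.2 and -18.9 points (limma adjusted p = 0.0235 and 0.0383). The F-MTAza call for this block was lost without PBS replicate 1 or 2 or F-MTAza replicate 1 or 2 (limma adjusted p from 0.0507 to 0.102). The NP-MTAza call was lost without PBS replicate 1 or 2, F-MTAza replicate 2 or NP-MTAza replicate 1 or 3 (limma adjusted p from 0.0506 to 0.148).

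The Gata2 body, with 28 shared CpGs, was at 64.3%, 57.6% and 60.5% in PBS and 35.3% (31.1% to 39.6%) in Aza replicate 3. It was at 40.1%, 47.1% and 33.5% in F-MTAza and 40.4%, 41.4% and 33.4% in NP-MTAza, with differences of -20.6 points (limma adjusted p = 0.0018) and -22.4 points (limma adjusted p = 0.00102). Within it, an intronic 5-CpG block 3616 to 3679 bp inside the gene was low already in PBS, at 28.3%, 34.4% and 31.1%. Its differences of -7.40 and -2.82 points did not pass the test (limma adjusted p = 0.116 and 0.541), though without F-MTAza replicate 1 the first became -10.1 points with a limma adjusted p of 0.0467. A second annotated coding start lies 4773 bp inside the gene, and its window, with 6 shared CpGs, was at 31.7% ± 0.309 in PBS, 28.3% ± 5.55 in F-MTAza and 28.1% ± 1.72 in NP-MTAza (SD, n = 3). Aza replicate 3 was lower there, at 14.6%, with a wide interval of 7.25% to 27.2%. With every CpG listed in each library (21 to 95), PBS was higher, at 50.7%, 63.6% and 47.1%. F-MTAza was then at 32.5%, 37.5% and 23.0%, NP-MTAza at 54.9%, 32.5% and 32.3% and Aza replicate 3 at 36.6%. The level of this window and its difference from PBS thus depended on the CpGs used.

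Gata4, a factor of heart, gut and gonad, could be read only in its body. Over 61 shared CpGs that body was at 78.9%, 77.9% and 79.5% in PBS, the narrowest spread of the 5 genes, and at 50.0% (47.0% to 53.0%) in Aza replicate 3. It was at 62.1%, 48.7% and 60.8% in F-MTAza and 57.6%, 55.5% and 52.4% in NP-MTAza, all below PBS. The fall was 21.6 points in F-MTAza (difference -21.6, limma adjusted p = 0.0004) and 23.6 points in NP-MTAza (difference -23.6, limma adjusted p = 0.000217). The F-MTAza call was lost at a minimum of 10 reads per CpG (-11.4 points, limma adjusted p = 0.0905). The intronic block whose sequence is shown above fell by 27.2 points (limma adjusted p = 0.00308) and by 28.6 points (limma adjusted p = 0.00208), and remained called whichever library was left out.

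The other 3 Gata4 blocks were less stable. The 9-CpG block ahead of the cluster of inner starts, 25750 to 25874 bp inside the gene, was at 77.8%, 84.7% and 82.2% in PBS. F-MTAza replicate 1 was above all of these at 92.0%, while F-MTAza replicates 2 and 3 were at 53.5% and 74.7%, and the difference of -8.20 points did not pass (limma adjusted p = 0.481). Without F-MTAza replicate 1 it was -17.5 points (limma adjusted p = 0.0389), and without F-MTAza replicate 2 it was 1.77 points, the other way. In NP-MTAza the block was at 65.4%, 55.7% and 57.3% and passed narrowly (-22.1 points, limma adjusted p = 0.0443), a call lost when any library of PBS or NP-MTAza, or F-MTAza replicate 3, was left out (limma adjusted p from 0.0568 to 0.141). The block 30182 to 30525 bp inside the gene, in annotated UTR, fell, with differences of -21.5 and -20.9 points (limma adjusted p = 0.0189 and 0.0193). Both calls there were lost without any of the PBS libraries, the first also without F-MTAza replicate 2 and the second also without NP-MTAza replicate 3 (limma adjusted p from 0.05004 to 0.0765). The block at 45431 to 45766 bp fell, with differences of -16.0 and -17.4 points (limma adjusted p = 0.0161 and 0.0102), the first call being lost without PBS replicate 1 or 2 or F-MTAza replicate 2 (limma adjusted p from 0.0512 to 0.0578).

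Gata5, the endocardial and gut member, also had only its body in the shared set. Its 15 CpGs were at 78.1%, 88.2% and 80.3% in PBS and 60.4% (55.1% to 65.5%) in Aza replicate 3. They were at 64.5%, 56.2% and 45.8% in F-MTAza and 59.1%, 58.2% and 64.8% in NP-MTAza. The fall of 26.7 points in F-MTAza (difference -26.7, limma adjusted p = 0.000614) was the largest of the tested bodies, and that of NP-MTAza was 21.5 points (difference -21.5, limma adjusted p = 0.00184). In the coding block shown above, the differences were -24.4 and -23.1 points (limma adjusted p = 0.00665 and 0.00772). With replicate 3 as the only NP-MTAza library, the second of these was -15.3 points. Over the 5 promoter CpGs that the 9 libraries other than F-MTAza replicate 1 shared, with 25 to 55 reads per library, the level was 38.0%, 48.0% and 64.4% in PBS. F-MTAza replicates 2 and 3 were at 60% and 28%, and NP-MTAza at 27.8%, 21.8% and 38.3%. Neither difference passed (-6.15 and -20.9 points, limma adjusted p = 0.692 and 0.155), and the few reads limit what could be detected.

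Gata6, a factor of endoderm and heart, had a body of 18 shared CpGs at 73.5%, 80.7% and 75.8% in PBS and 46.4% (39.4% to 53.4%) in Aza replicate 3. The levels were 57.1%, 61.8% and 58.0% in F-MTAza and 46.0%, 61.1% and 52.1% in NP-MTAza. The body fell by 17.7 points (limma adjusted p = 0.00232) and by 23.6 points (limma adjusted p = 0.000431). Its promoter, over 17 CpGs shared by 9 libraries, was at 60%, 64.5% and 65.4% in PBS, at 51.3% and 35.1% in F-MTAza replicates 2 and 3, and at 52.9%, 46.4% and 42.7% in NP-MTAza. Although every combination library was below PBS, the differences of -20.1 and -15.9 points stayed just short of a call (limma adjusted p = 0.0500167 and 0.0592). Among the 8992 promoters of this 9-library set, 18.6% were called lower in F-MTAza and 25.7% in NP-MTAza.

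The 3 Gata6 blocks all started high. The 12-CpG block from -4136 to -4029 bp of the start was at 95.6%, 94.3% and 94.1% in PBS. It was at 73.0%, 88.0% and 72.6% in F-MTAza and at 71.9%, 67.0% and 57.9% in NP-MTAza, with differences of -16.8 points (limma adjusted p = 0.00853) and -29.0 points (limma adjusted p = 0.000756). The 6 coding CpGs 2516 to 2575 bp inside the gene kept the highest levels of any Gata block in both combination groups, at 84.3% ± 7.19 in F-MTAza and 78.7% ± 1.44 in NP-MTAza (SD, n = 3), from 96.5% ± 2.83 in PBS. They fell by 12.2 points (limma adjusted p = 0.0157) and by 17.8 points (limma adjusted p = 0.0032), the F-MTAza call being lost without PBS replicate 2 or 3 (limma adjusted p = 0.0540 and 0.0513) or F-MTAza replicate 3, where the difference was -8.08 points. The intronic block at 829 to 893 bp fell by 25.2 points in F-MTAza (limma adjusted p = 0.00344) and by 17.8 points in NP-MTAza (limma adjusted p = 0.0153), a call lost without NP-MTAza replicate 1 (-11.6 points, limma adjusted p = 0.0511) or with replicate 3 as the only NP-MTAza library (-8.69 points).

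**Figure D3:**
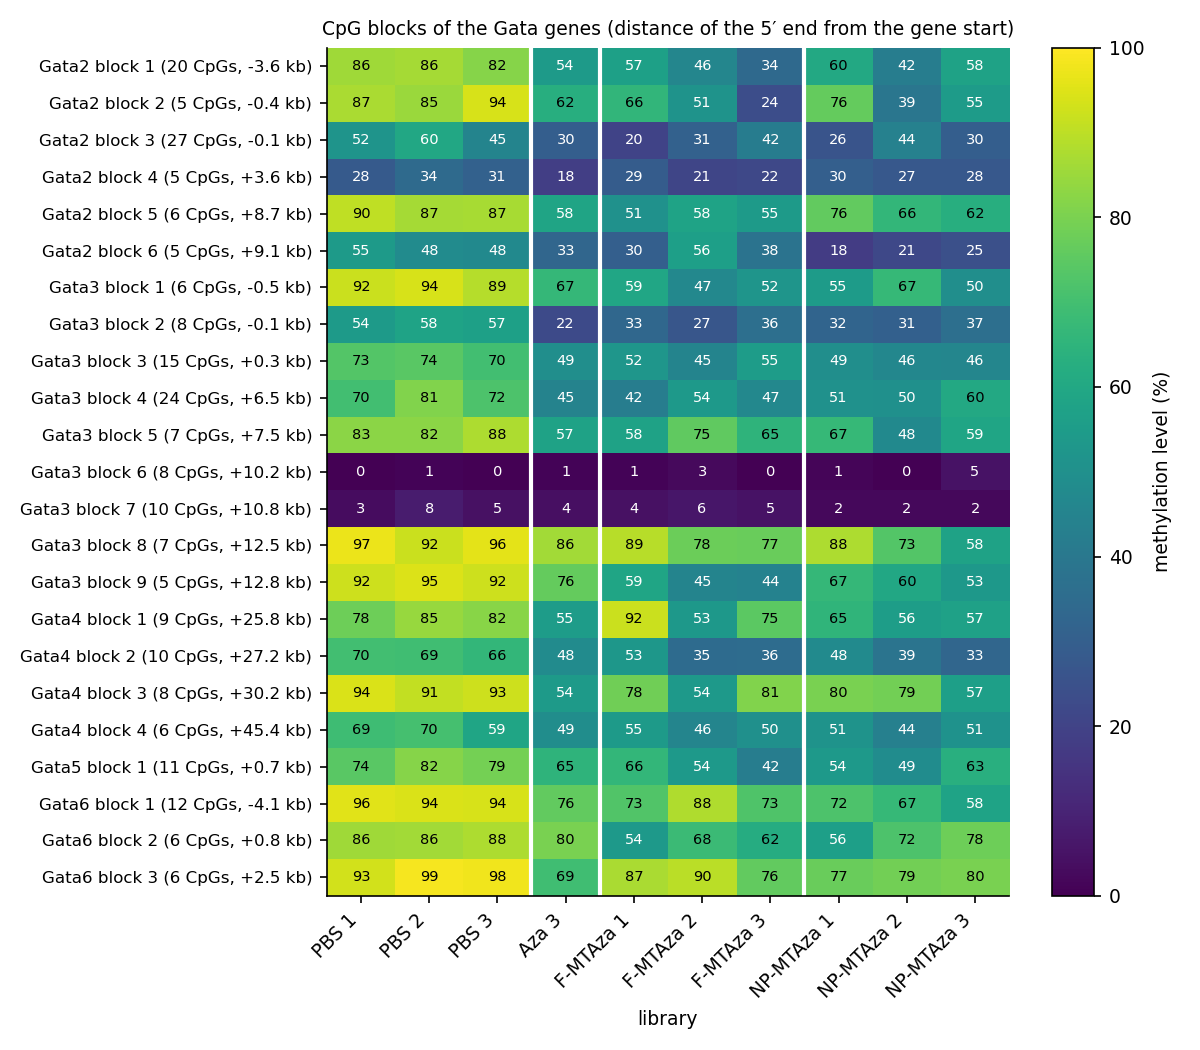
Methylation level (%) of the 23 CpG blocks of the Gata genes (rows, with the number of CpGs and the distance of the 5′ end from the gene start in kb) in 10 libraries (columns). Of the 23 blocks, 18 had all 6 combination libraries below all 3 PBS libraries, and the 2 dark rows are the Gata3 blocks before the inner start.

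Counted over Gata2, Gata4, Gata5 and Gata6, all 4 bodies were called lower in both combination groups, where 84.4% of 11720 bodies were called in F-MTAza and 86.6% in NP-MTAza. Of their 14 blocks, 11 were called lower in F-MTAza and 13 in NP-MTAza, none higher, against 63.9% and 67.0% of 26197 blocks. Median differences over the 14 blocks were -21.3 and -21.5 points, close to the -21.0 and -23.2 points over all blocks. These shares lie near or somewhat above the background and are no result about the Gata genes. All 6 combination libraries were below all 3 PBS libraries in 11 of the 14 blocks, and in 65.0% of all blocks. Of the 19 windows tested (the Gata2 promoter, 4 bodies and 14 blocks), 16 were called in F-MTAza and 18 in NP-MTAza. These windows overlap, so they are not separate observations. The 32 shared CpGs of the Gata2 promoter include blocks of 5 and 27 CpGs, and 11 of the 15 shared Gata5 body CpGs form its block. Whichever single library was left out, 11 and 12 of the 19 windows were called, the 4 bodies among them in both comparisons. The like share over all windows was not computed, so nothing about the Gata genes is read from these counts. NP-MTAza replicates 1 and 2 were labelled as carrying 2 barcode sets, as were the left-out Aza replicates 1 and 2. With replicate 3 as the only NP-MTAza library, fewer Gata windows were called in NP-MTAza, as were fewer of all promoters, bodies and blocks. The Gata windows that lost a call included the Gata2 promoter (-25.5 points), the Gata5 body (-17.4 points) and blocks of all 4 genes. With 1 library, that fit assumed that the group varies like the others.

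**Figure D4:**
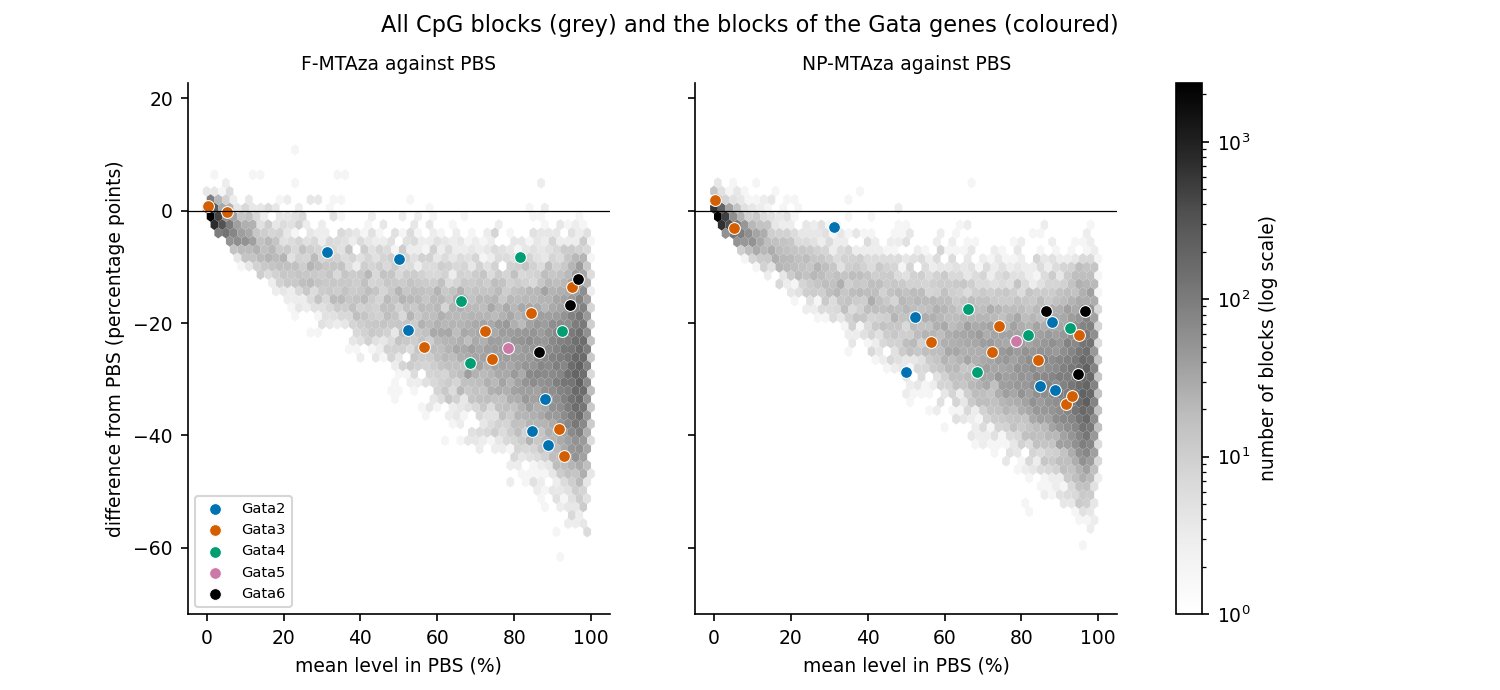
Difference from PBS (percentage points) against the mean PBS level (%) for all 26197 CpG blocks, shaded by their number on a log scale, with the 23 Gata blocks in colour, for F-MTAza and NP-MTAza. The Gata blocks follow the slope of the whole set, in which blocks with higher PBS levels lost more.

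The size of a loss went with the level in PBS. This relation is partly fixed in advance, since the PBS level enters the difference and a block cannot lose more than that level. Blocks of the genome under 20% in PBS had a median difference of -1.18 points in F-MTAza and -1.23 points in NP-MTAza. In those at 80% or more, the medians were -27.8 and -30.2 points. The 2 unmethylated Gata3 blocks had differences of 0.89 and -0.18 points in F-MTAza, and of 1.84 and -3.12 points in NP-MTAza. Over every CpG listed in each library these were -0.814 and 0.188, and -0.405 and -3.07, so these signs near 0 changed with the CpGs used in 3 of the 4 values. The tested blocks of Gata2, Gata4, Gata5 and Gata6 ranged from -41.8 to -7.40 points in F-MTAza. In NP-MTAza they ranged from -31.97 to -2.82 points, a range that takes in the -3.12 points of the low Gata3 block.

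Single CpGs were compared on reads pooled by group, with a likelihood ratio test, a q under 0.01 and a loss of at least 35 points. In F-MTAza 28 of 92 CpGs tested in Gata2 were called lower, 10 of 67 in Gata4, 2 of 16 in Gata5 and 3 of 44 in Gata6, against 22.0% of all CpGs. In NP-MTAza the counts were 37 of 179 in Gata2, 31 of 114 in Gata4, 4 of 35 in Gata5 and 11 of 75 in Gata6, against 25.9%. Some of the small counts moved with 1 library. In F-MTAza, Gata4 had 16 without F-MTAza replicate 3, Gata5 had 4 without F-MTAza replicate 1 and 1 without F-MTAza replicate 3, and Gata6 had 9 without F-MTAza replicate 2. In Gata3, as a description, 29 of 126 CpGs were lower by at least 35 points in F-MTAza and 46 of 168 in NP-MTAza, where 22.2% and 26.1% of all CpGs were. No Gata CpG was called higher.

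Shared CpGs were ranked by their loss over both combination groups pooled. The first places in Gata4 were taken by a pair of coding CpGs 67009 and 67019 bp inside the gene. They stood at 94.9% and 91.4% in pooled PBS reads, at 28.6% and 27.3% in F-MTAza and at 57.9% and 47.4% in NP-MTAza (likelihood ratio test, q = 2.30e-08 and 1.48e-07 in F-MTAza). The third, in an intron 68894 bp inside the gene, went from 98.9% to 48.3% and 55.6%. In Gata3 the first 3 in this order, at 4660, 8108 and 21176 bp inside the gene, had differences of -46.9, -45.5 and -45.2 points in F-MTAza and of -45.9, -45.9 and -46.3 points in NP-MTAza. Among the first 3 of Gata5, a UTR CpG 8275 bp inside the gene lost 41.4 points in F-MTAza (difference -41.4, q = 2.25e-08) and stood 21.0 points lower in NP-MTAza (difference -21.0), under the size needed for a call. The first in Gata6, at -2980 bp, had a difference of -39.9 points in NP-MTAza (q = 6.39e-10) and of -30.8 points in F-MTAza. These CpGs were picked for their size, and the pooled test takes no account of the spread between libraries.

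The free and the micelle form gave no called difference at any Gata window. None of 2 promoters, 5 bodies and 23 blocks passed, and limma called 0 of all 8030 promoters, 11720 bodies and 26197 blocks, with 408, 828 and 2021 of them at an unadjusted p under 0.05. At the Gata3 promoter NP-MTAza minus F-MTAza was -0.42 points, with a 95% interval of -10.2 to 9.34 from limma on the percent scale. The Gata2 promoter differed by 1.55 points (-10.8 to 13.9). For the bodies the differences were 0.663 points in Gata3 (-6.73 to 8.05), -1.84 in Gata2 (-11.9 to 8.26) and -2.03 in Gata4 (-10.5 to 6.47). They were 5.20 points in Gata5 (-5.79 to 16.2) and -5.90 in Gata6 (-15.2 to 3.35). Differences of up to about these bounds could not be told from 0 here. Over every CpG listed in each library the Gata5 body differed the other way, by -4.81 points, and 17 of the 30 windows, these 2 promoters and 5 bodies among them, changed sign under at least 1 alternative.

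Of the Gata blocks, 3 had an unadjusted limma p under 0.05 between the formulations. The pair in Gata2 lie close together and point opposite ways. The block 8665 to 8894 bp inside the gene was at 50.7%, 58.1% and 54.5% in F-MTAza and 75.9%, 66.1% and 62.5% in NP-MTAza (13.7 points, limma adjusted p = 0.574). The intronic block at 9148 to 9363 bp was at 30.3%, 56.2% and 37.9% in F-MTAza and 17.9%, 21.5% and 24.6% in NP-MTAza (-20.1 points, limma adjusted p = 0.475). Against PBS, at 54.5%, 48.2% and 47.5%, the latter block passed in NP-MTAza (-28.8 points, limma adjusted p = 0.00247) and not in F-MTAza (-8.61 points, limma adjusted p = 0.253), and without F-MTAza replicate 2 it passed there too (-16.0 points, limma adjusted p = 0.0243). The third was the low Gata3 block before the inner start (-2.94 points, limma adjusted p = 0.648). Among single CpGs, 0 were called in any of the 5 genes, where 0.0310% of all CpGs tested were.

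**Figure D5:**
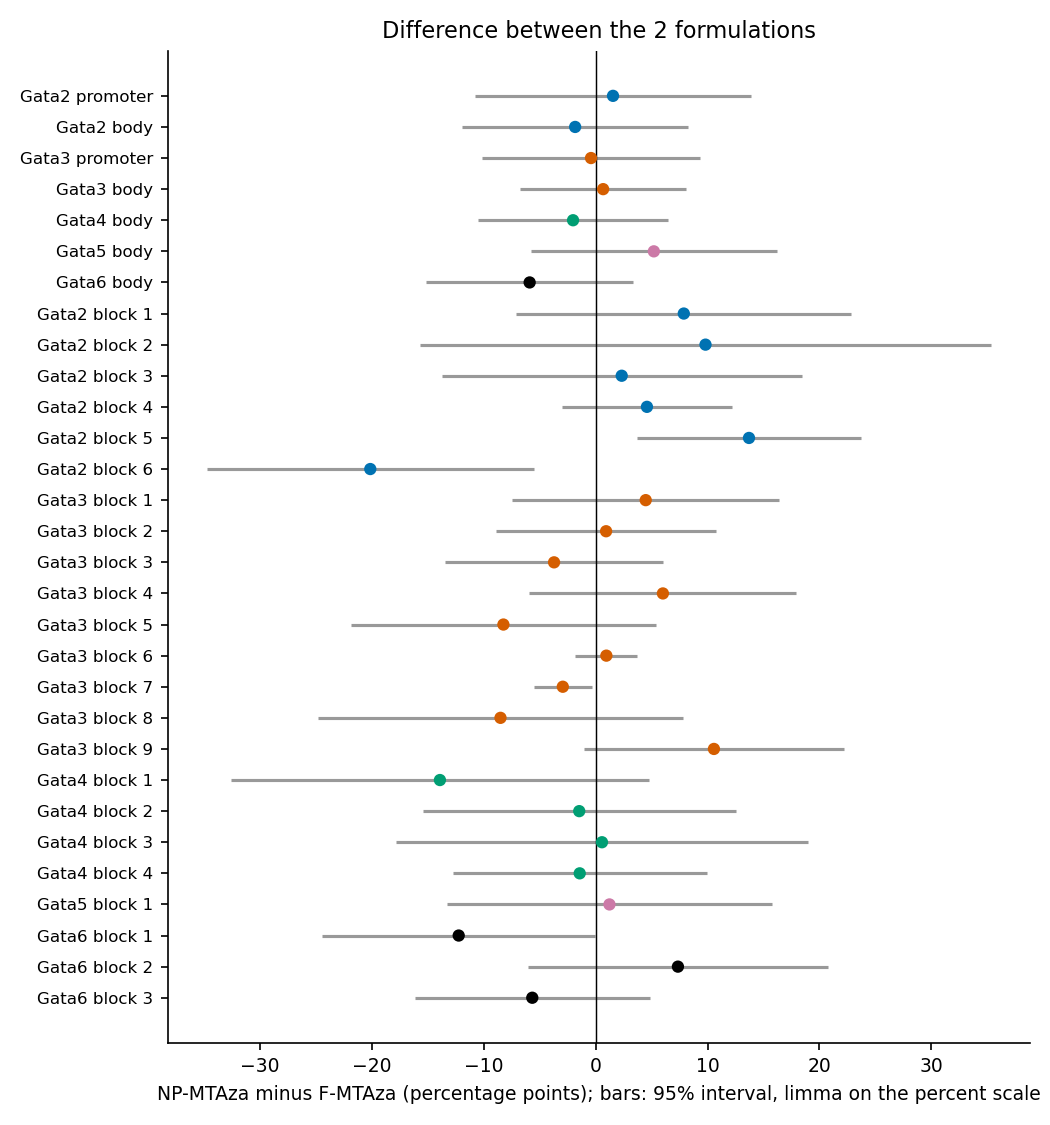
NP-MTAza minus F-MTAza (percentage points) for the Gata windows and blocks that could be tested, with 95% intervals from limma on the percent scale. Points lie on both sides of 0, and the intervals of 4 blocks (Gata2 blocks 5 and 6, Gata3 block 7 and Gata6 block 1) leave out 0 before adjustment, though none was called after it.

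Aza replicate 3 was below the PBS mean in every promoter and body window that could be read over shared CpGs. Its differences from the PBS mean were -19.6 points at the Gata2 promoter and -25.3 at the Gata3 promoter. In the bodies they were -25.5 in Gata2, -21.0 in Gata3, -28.8 in Gata4, -21.8 in Gata5 and -30.3 in Gata6, the last of which was -16.8 with each CpG counted equally. The difference was -17.0 at the single shared CpG of the Gata4 promoter, where PBS was low and spread, at 7.89%, 28.6% and 14.5%. Aza replicate 3 had 24 reads there, at 0% (0% to 13.8%), and the differences of F-MTAza and NP-MTAza were -2.71 and -3.11 points. With 1 library, none of this can be tested, and what metformin and tolvaptan add to Aza cannot be read from it.

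A list of 48 gene names around the GATA factors (46 in the annotation) gave 27 promoters that could be tested. Of these 9 were called lower in F-MTAza and 10 in NP-MTAza, none higher, where 22.3% and 24.5% of all promoters were. The median differences were -12.5 and -10.7 points, against -3.93 and -4.15 points over all promoters. Among all 8030 promoters, 4505 were under 20% in PBS, with medians of -1.22 and -1.30 points. The list was not matched to all promoters by PBS level, so nothing is read from its counts or medians. The haematopoietic partners that form a complex with GATA factors had 3 and 4 of 4 promoters called. These 4 (Lmo1, Lmo2, Lyl1 and Tal1) had PBS means of 52.1% to 91.7%, and promoters with higher PBS levels lost more across the genome, with medians of -24.9 and -27.6 points at 80% or more in PBS, so nothing is read from this count. The nephric duct and ureteric bud genes around Gata3 had 1 of 13 called in each comparison. Several of them, such as Pax2, Emx2 and Hoxb7, were under 2% methylated in PBS. Most of the 13 were higher, with PBS means from 22.8% (Wnt11) to 82.6% (Lhx1), and some of these fell without a call. Ret, at 67.5% in PBS, had differences of -31.6 and -36.1 points (limma adjusted p = 0.0812 and 0.0595). Of the other GATA-type zinc finger genes neither of 2 tested, Gatad2a and Trps1, was called, and both were under 7% in PBS.

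Among the partners, Lyl1, a basic helix-loop-helix factor of blood progenitors, was at 91.7% ± 3.71 in PBS, 54.2% ± 7.18 in F-MTAza and 66.7% ± 4.99 in NP-MTAza (SD, n = 3). Both changes passed (limma adjusted p = 0.00201 and 0.00484) and were called whichever library was left out. With replicate 3 as the only NP-MTAza library, the NP-MTAza call of Lyl1 was lost (-28.0 points, limma adjusted p = 0.0521). Calls in both groups also held without any 1 library for Hnf4a, a regulator of proximal tubule and liver genes, which had only 4 shared CpGs and fell, with differences of -49.1 and -35.7 points (limma adjusted p = 0.00214 and 0.00449). They held too for Tcfap2c, an AP-2 factor, which fell, with differences of -16.3 and -18.3 points (limma adjusted p = 0.0163 and 0.00957). Its F-MTAza call was lost with each CpG counted equally (-9.18 points, limma adjusted p = 0.0520) and with the promoter taken from 1000 bp upstream (-10.3 points, limma adjusted p = 0.119). Its NP-MTAza call was lost with replicate 3 as the only NP-MTAza library (limma adjusted p = 0.129). Lmo2, the adaptor of the blood GATA complex, fell, with differences of -24.8 and -29.7 points (limma adjusted p = 0.0382 and 0.0154). Its F-MTAza call was lost when any library of PBS or F-MTAza, or NP-MTAza replicate 2, was left out (limma adjusted p from 0.0559 to 0.103), or over CpGs shared by the 9 libraries other than F-MTAza replicate 1 (limma adjusted p = 0.0661), and its NP-MTAza call without PBS replicate 3 (limma adjusted p = 0.0523).

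Hand2, a heart partner of Gata4, fell, with differences of -18.7 and -13.9 points (limma adjusted p = 0.0153 and 0.0336), the second call being lost without any PBS or NP-MTAza library (limma adjusted p from 0.0605 to 0.0922) and on the percent scale (limma adjusted p = 0.0578). Foxa2, an endoderm factor, fell, with differences of -17.1 and -19.6 points (limma adjusted p = 0.0274 and 0.0148), the first call being lost without any PBS library or F-MTAza replicate 1 or 3 (limma adjusted p from 0.0624 to 0.0729). That call was also lost with the promoter from 1000 bp upstream (-8.45 points, limma adjusted p = 0.312) and in the 9-library set (-15.6 points, limma adjusted p = 0.0912). Lhx1, a factor of the nephric duct, was called in NP-MTAza (-20.6 points, limma adjusted p = 0.0155), a call lost without PBS replicate 2 or NP-MTAza replicate 3 (limma adjusted p = 0.0547 and 0.0527). In F-MTAza its difference was -13.5 points (limma adjusted p = 0.0622), and it passed without NP-MTAza replicate 2 (limma adjusted p = 0.0440) and under 5 other alternatives, which changed the CpGs, their weight or their minimum number (-16.6 to -13.5 points, limma adjusted p from 0.0110 to 0.0476). Sox9, of the ureteric tip, was called in F-MTAza (-14.0 points, limma adjusted p = 0.0109) and not in NP-MTAza (-8.06 points, limma adjusted p = 0.0859), where it passed over every CpG listed (-15.1 points, limma adjusted p = 0.0229). Zfpm2, a cofactor that binds GATA zinc fingers, was called in F-MTAza (-12.5 points, limma adjusted p = 0.0321), a call lost without PBS replicate 1 or 3 or F-MTAza replicate 1 or 3 (limma adjusted p from 0.0698 to 0.0861). It was also lost over every CpG listed, with each CpG counted equally, with NP-MTAza replicate 3 alone for its group and in the 9-library set (limma adjusted p from 0.0514 to 0.201). Tcfap2a, with 4 shared CpGs, passed in NP-MTAza (-31.4 points, limma adjusted p = 0.0430), a call lost when any PBS library, F-MTAza replicate 1 or 3 or NP-MTAza replicate 1 or 3 was left out (limma adjusted p from 0.0522 to 0.127). That call was also lost over every CpG listed (-24.1 points, limma adjusted p = 0.0571) and in the 9-library set (limma adjusted p = 0.0530), and Tcfap2a passed in F-MTAza with each CpG counted equally (limma adjusted p = 0.0101). With replicate 3 as the only NP-MTAza library, the NP-MTAza calls of Hand2, Foxa2, Lhx1 and Tcfap2a were lost (limma adjusted p from 0.0521 to 0.289).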

How the data were processed

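Methylation was measured by RRBS in 12 libraries. The authors trimmed reads (Trim Galore 0.4.4), ran Bismark 0.20.1 with Bowtie2 against mm9, combined both strands at every CpG and required 5 reads. Each deposited line gives methylated and total reads written as a fraction, and a percent that is that fraction rounded down at nearly every CpG. Only the read numbers, as the authors deposited them, were used here. The reads of repeated lines in Aza replicates 1 and 2 were summed. These libraries entered no comparison but the alternative run with all 12 libraries. Genes came from GENCODE M1 and sequences from the mm9 genome.

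Promoters and bodies with at least 3 shared CpGs and blocks with at least 5 were fitted with limma 3.58.1 in R 4.3.3 (lmFit, eBayes with trend, arcsine square root of the level, 4 groups, no block), Benjamini-Hochberg adjusted over 8030 promoters, 11720 bodies or 26197 blocks. For single CpGs, reads were pooled by group where all 6 libraries had at least 5, and a logistic model with and without the group was compared by likelihood ratio. Python 3.11.15, numpy 2.4.6, pandas 2.3.3, scipy 1.17.1, pysam 0.24.0 and matplotlib 3.10.9 did the rest. Both tests were tried on simulated data. The members and lists were chosen with earlier results of these data known. Named were each window and block of the 5 genes, the 3 shared CpGs per gene with the largest loss over both combination groups pooled (of which the text gives a part), the 5 promoters nearest to that of Gata3 and up to 2 passing partner promoters per subgroup of the list. No source says that the replicate numbers pair the libraries, and deviations from group means of same-numbered libraries had correlations between -0.035 and 0.0167. The protein sequences of the factors were not used here.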

Additional observations from a re-analysis of the deposited data

Results flagged for a closer look

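Aza replicates 1 and 2 enter no comparison but the alternative run with all 12 libraries. They had levels above every PBS library in 5 readings of the promoter, upstream, start and body windows of the Gata genes. These readings were taken over every CpG each library lists, so over different CpGs. No body was among them, and blocks were not counted, though some also lay above PBS, such as the Gata3 block 10219 to 10508 bp from the outermost start, at 30% and 38% against at most 3.09%. In Aza replicate 2 the Gata2 promoter was at 74.2% (40 CpGs, 801 reads), against 49.85% to 60.2% in PBS and 36.7% in Aza replicate 3. In the same library the Gata5 promoter was at 69.4% (16 CpGs, 170 reads), against 40.1% to 63.2%, and the Gata5 upstream part at 65.3% (9 CpGs, 95 reads), against 59.5% to 65.1%. The window of the inner Gata3 start was at 30.7% in Aza replicate 1 (19 CpGs, 137 reads) and at 44.6% in Aza replicate 2 (15 CpGs, 112 reads), against 8.35% to 18.3% in PBS and 6.499% in Aza replicate 3. The levels of these 2 libraries followed no other library across CpGs, and the part this has in the values was not tested.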

How the results depend on the processing

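No called difference changed direction under any alternative run, while 17 of the 30 uncalled differences between formulations did, as did 1 uncalled F-MTAza difference from PBS (the Gata4 block 25750 to 25874 bp inside the gene) and the Gata3 blocks near 0%. With at least 10 reads per CpG, promoters called lower numbered 600 in F-MTAza and 630 in NP-MTAza (of 2186), bodies 4330 and 4395 (of 4954) and blocks 3490 and 3577 (of 5093), since fewer windows could be tested. With at least 10 shared CpGs they were 797 and 871 (of 3969), 5866 and 5976 (of 6571) and 3214 and 3428 (of 7081). Of the windows of Gata2, Gata4, Gata5 and Gata6, 0 (F-MTAza) and 1 (NP-MTAza) of 2 were called at 10 reads, where the Gata4 body in F-MTAza was at -11.4 points, and 10 of 10 in both with at least 10 CpGs. With libraries of 1 barcode set, NP-MTAza kept 579 promoters and 8 of 19 Gata windows. Those 19 windows are mostly bodies and blocks, so the promoter count is no background for the 8. That fit had 1 NP-MTAza library, so nothing about the Gata genes is read from either count. Single CpGs called lower were 204483 and 368109 at 25 points, and 23215 and 69644 at 10 reads. An F test with a correction for extra spread called 0 CpGs in all 3 comparisons, a void test, which also made no call in data made with known differences. Between formulations, a chi-square correction, added after seeing the data, left 21 CpGs and 10 reads left 92.

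At 10 reads the Gata3 promoter differed from PBS by -35.7 and -33.5 points (F-MTAza and NP-MTAza) and its body by -30.4 and -29.8. For Aza replicate 3, the Gata3 body was at -24.8 and the Gata4 body at -25.2 at 10 reads. With each CpG counted equally the bodies of Gata2, Gata4 and Gata6 were at -21.9, -27.3 and -16.8. Over every CpG listed, Gata4 and Gata6 were at -27.8 and -23.1, and over CpGs in 2 of 3 libraries at -29.9 and -21.6. With all 12 libraries (Aza as a group of 3, every CpG listed) the Gata2 promoter was at -3.92, and the bodies of Gata2 to Gata6 at -18.1, -27.6, -34.8, -28.9 and -36.3. These means include Aza replicates 1 and 2, whose levels followed no other library across CpGs, so no effect of Aza is read from them.

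Leaving out each library in turn gave (F-MTAza, then NP-MTAza) 1036 to 1791 and 1211 to 2020 promoters, 9480 to 9892 and 9695 to 10152 bodies, and 14296 to 16736 and 15449 to 17797 blocks. The fewest promoters in both came without PBS replicate 2. Single CpGs numbered 110998 to 117632 and 204480 to 219297, and 150 to 257 between formulations, where windows called stayed at 0. Gata windows called were 11 to 17 and 14 to 18. The Gata3 promoter ranged from -29.3 to -23.4 and from -29.5 to -26.0 points, and its body from -21.6 to -18.4 and from -20.9 to -17.7. For Aza replicate 3 the Gata2 and Gata3 promoters ranged from -23.2 to -17.7 and from -26.9 to -24.4, and the bodies of Gata2 to Gata6 from -27.1 to -23.8, -22.4 to -19.1, -29.2 to -28.4, -23.8 to -18.8 and -31.9 to -28.3.

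With the replicate number as a block, 1568 and 1781 promoters, 9860 and 10127 bodies and 16600 and 17444 blocks were called lower, and 16 and 18 Gata windows. Of the partner promoters, Lmo2, Foxa2 and Zfpm2 in F-MTAza and Hand2 and Tcfap2a in NP-MTAza missed the threshold under that block. No source says how the libraries were numbered, and what these losses reflect was not tested.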
